A study of Homo sapiens with 58 samples.

Results

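Sayeok-tang is a traditional multi-herb formula that combines processed aconite, dried ginger and licorice. Its hot water extract at 100 µg/mL, the medium of 3 doses, was compared here with the vehicle DMSO in HepG2, a liver cancer cell line of human origin that keeps many hepatocyte genes active. The 6 libraries of this comparison, 3 of the medium dose and 3 of the vehicle, were chosen by their sample labels from the 58 libraries of the series, which hold 24 groups. All cells were collected after 24 h. The groups used were Sayeok-tang at the medium dose (100 µg/mL, 3 libraries), at the low dose (20 µg/mL, 3 libraries) and at the high dose (500 µg/mL, 3 libraries), a second formula, Bojungikgi-tang, extracted in the same way and given at 100 µg/mL (2 libraries), and the vehicle DMSO (3 libraries). The sample labels give DMSO as 0.1% and the series text as 2%. The p-values rest on a spread between replicates that was estimated over all 58 libraries and 24 groups, not over the compared groups alone. The labels do not say whether replicates came from separate cultures, so this spread may be technical.

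Poly-herbal extracts reach liver cells as mixtures of small molecules, and several sensor systems are known to read such mixtures. The aryl hydrocarbon receptor (AhR) is a transcription factor that aromatic ligands activate, and CYP1A1, which encodes a cytochrome P450 enzyme that oxidises such compounds, is its best known target. NRF2 is a transcription factor that electrophiles release from degradation, after which it raises genes of glutathione and thioredoxin metabolism. Metallothioneins are small cysteine-rich proteins that bind zinc and copper, and MTF1, a transcription factor that senses zinc, switches their genes on through metal response elements in their promoters.

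The libraries held 22143845, 24668014 and 26969596 expected counts at the medium dose, against 24077535, 26409029 and 25174831 in the vehicle. All 14 liver cell markers, among them ALB, TTR and HNF4A, were at or above 1 CPM (counts scaled to the size of the library), and their summed level was 44340 to 45390 CPM at the medium dose and 44320 to 44650 CPM in the vehicle. The defining leukocyte genes PTPRC, CD3E and TYROBP were at 0 in both groups, while LYZ made up nearly all of the leukocyte marker sum of 1331 to 1465 CPM at the medium dose and 1294 to 1373 CPM in the vehicle. Summed fibroblast markers reached 9.40 to 10.3 CPM at the medium dose and 10.3 to 11.9 CPM in the vehicle, and endothelial markers 4.08 to 4.39 CPM at the medium dose and 3.57 to 4.45 CPM in the vehicle. In bulk RNA, fewer cells of a kind and less RNA per cell cannot be told apart.

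Of 13945 genes tested, 588 (4.22%) were called at an adjusted p below 0.05 by edgeR's quasi-likelihood test with Benjamini-Hochberg adjustment. Of these, 303 (2.17%) were higher at the medium dose and 285 (2.04%) were lower. Most differences were small, with a median absolute log2 fold change of 0.22 and 389 genes under 1.2-fold, while 35 genes reached 1.5-fold and 14 reached 2-fold. Most of the genes past 2-fold had few reads, and the exceptions were CYP1A1 on the rising side and MT1G, MT1F, MT2A, MT1X and MT1E on the falling side. The libraries of the groups did not overlap for 585 of the called genes, against 3464 (24.8%) of all genes tested. Calls depended on single libraries: 217 genes were called without vehicle replicate 3, 337 without vehicle replicate 1, 323 without medium replicate 1 and 382 without medium replicate 2. The longest transcripts of the genes called higher had a median GC content of 43.2%, those called lower 54.3%, and all genes tested 48.4%. With a trend on GC content and length taken out, an alternative added after seeing the data, 1060 genes were called and 572 of the 588 kept their call and direction.

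CYP1A1 showed the highest rise among the genes above 5 CPM. Its libraries held 44.4, 45.05 and 43.41 CPM at the medium dose, against 12.72, 10.75 and 14.04 CPM in the vehicle. The medium libraries lay close together and far above every vehicle library, a 3.55-fold difference (log2 fold change 1.83, SE 0.10, edgeR adjusted p = 2.66e-18). The gene (ENSG00000140465) lies on the minus strand of chromosome 15, GRCh38 positions 74719542 to 74725610. ALDH3A1, which encodes an aldehyde dehydrogenase and is another AhR target, had 0.952, 1.29 and 1.01 CPM at the medium dose and 0.412, 0.484 and 0.315 CPM in the vehicle. It rose at a low level (log2 fold change 1.42, SE 0.26, edgeR adjusted p = 0.000352). NQO1, a quinone reductase gene that both AhR and NRF2 control, had 743.3, 726.5 and 760.5 CPM at the medium dose and 685.0, 660.7 and 662.6 CPM in the vehicle. Its rise was small and without overlap (log2 fold change 0.15, SE 0.04, edgeR adjusted p = 0.0156), and the call was lost when medium replicate 1, medium replicate 3, vehicle replicate 2 or vehicle replicate 3 was left out (highest adjusted p over all settings 0.0827).

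The other AhR targets did not pass the test. TIPARP, which encodes a PARP enzyme that feeds back on AhR, had 23.77, 22.75 and 23.32 CPM at the medium dose and 23.38, 24.37 and 23.63 CPM in the vehicle, with overlapping libraries (log2 fold change -0.03, SE 0.07, edgeR adjusted p = 0.861). AHRR, the gene of the AhR repressor, had 0.499, 0.887 and 0.413 CPM at the medium dose and 0.659, 0.670 and 0.590 CPM in the vehicle. CYP1A2 was tested and was higher at an unadjusted p below 0.05, but it stayed at or under 0.225 CPM in these 6 libraries. CYP1B1 and UGT1A6 were not tested for lack of reads. Over the list, 3 of the 6 tested members of 8 rose and none fell by this test, beside 2.17% of all genes called higher. At an unadjusted p below 0.05, 4 were higher and 0 lower, beside 1346 higher and 1159 lower of all 13945 genes. DESeq2 called 2, both higher. The filter of 1 CPM in 3 libraries counts libraries of every group. ALDH3A1 was under 1 CPM in every vehicle library and CYP1A2 in all 6 libraries, so both entered the test through libraries with higher levels.

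**Figure D1:**
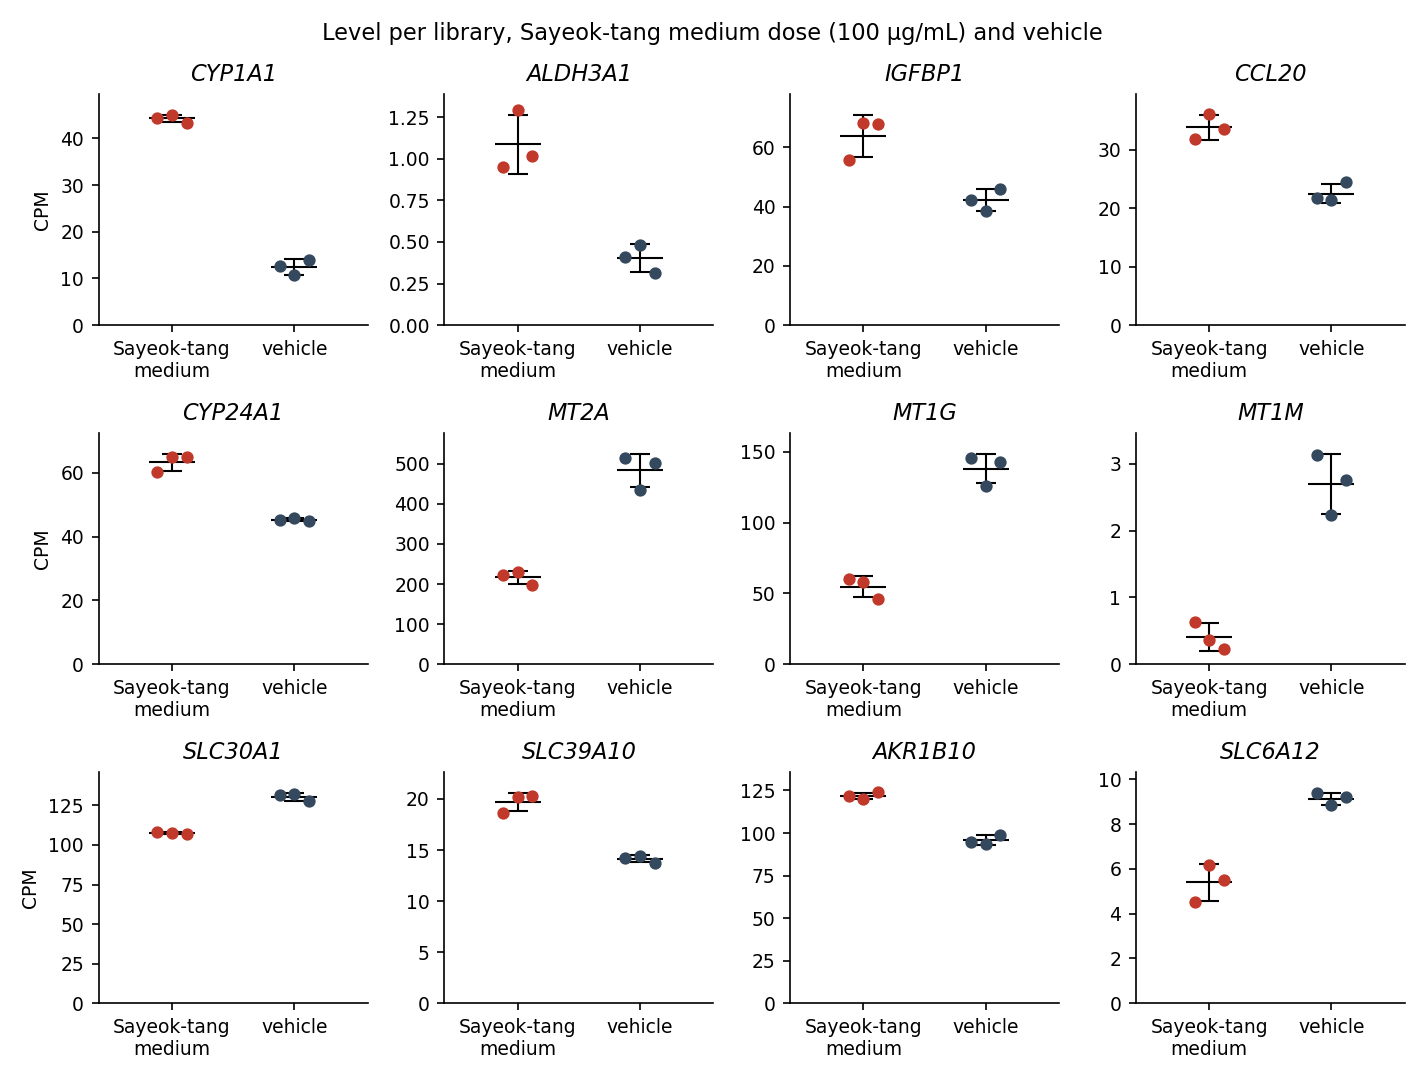
Level in CPM of 12 genes in each of the 3 libraries of the Sayeok-tang medium dose (red, left) and of the vehicle (dark blue, right). Each point is 1 library, the horizontal line is the mean and the bar its SD, and every axis starts at 0. The groups do not overlap in any panel: CYP1A1 stands at 43.41 to 45.05 CPM against 10.75 to 14.04 CPM, and MT2A at 198.8 to 229.8 CPM against 435.9 to 514.3 CPM.

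All 7 metallothionein genes that entered the test fell at the medium dose, beside 2.04% of all genes called lower. MT1M, which was under 1 CPM in every medium library, entered the test through libraries with higher levels. The family lies in a cluster on chromosome 16. MT2A (ENSG00000125148, plus strand, GRCh38 positions 56608199 to 56609497), the member with the most reads, had 222.3, 229.8 and 198.8 CPM at the medium dose, against 514.3, 435.9 and 500.9 CPM in the vehicle. Every medium library lay below every vehicle library, a 2.23-fold lower level (log2 fold change -1.16, SE 0.10, edgeR adjusted p = 4.67e-12). MT1G had 59.87, 58.11 and 46.11 CPM at the medium dose, against 145.8, 126.1 and 142.6 CPM in the vehicle (log2 fold change -1.34, SE 0.12, edgeR adjusted p = 3.49e-11). MT1E had 124.5, 122.6 and 114.7 CPM at the medium dose, against 259.5, 237.8 and 258.8 CPM in the vehicle (log2 fold change -1.06).

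MT1X had 31.93, 33.96 and 29.78 CPM at the medium dose, against 68.93, 63.25 and 72.64 CPM in the vehicle (log2 fold change -1.10). MT1F had 27.58, 24.92 and 25.12 CPM at the medium dose, against 62.1, 54.13 and 63.0 CPM in the vehicle (log2 fold change -1.21). For both genes every medium library lay below every vehicle library. The weakly expressed MT1M had 0.635, 0.363 and 0.225 CPM at the medium dose, against 3.13, 2.23 and 2.75 CPM in the vehicle (log2 fold change -2.75, SE 0.28, edgeR adjusted p = 2.13e-09). MT1A had 1.09, 1.37 and 1.69 CPM at the medium dose, against 2.55, 2.12 and 2.91 CPM in the vehicle (log2 fold change -0.85, edgeR adjusted p = 0.0183). MT1B, MT1H, MT3 and MT4 were not tested, as they had few or no reads. DESeq2 called 5 of the 7. The family members are close in sequence and the authors' counting with RSEM shares out reads that match several genes, so the 7 values are not fully separate measurements.

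Summed over the 7 genes, metallothionein reads came to 467.9, 471.1 and 416.4 CPM at the medium dose, against 1056, 921.5 and 1044 CPM in the vehicle. The composition of this sum hardly differed, with MT2A at 47.5, 48.8 and 47.7% of it at the medium dose and 48.7, 47.3 and 48.0% in the vehicle. At the high dose MT2A made up 71.1, 73.1 and 72.8% of a sum of 295.7, 265.3 and 256.3 CPM.

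The promoters of MT2A and MT1X are shown because metal response elements, the sites of MTF1, are the known control sequences of this family, and these 2 of the 7 tested members matched the RefSeq promoter table. Each line gives the 180 bases before the RefSeq start (build GRCh38.p14), with matches to the core TGCACNC or TGCGCNC on either strand in capitals. MT2A lies at chr16:56608404-56608583 and MT1X at chr16:56682290-56682469, both on the plus strand. The annotation used for the gene positions starts both genes upstream of the RefSeq start.
MT2A: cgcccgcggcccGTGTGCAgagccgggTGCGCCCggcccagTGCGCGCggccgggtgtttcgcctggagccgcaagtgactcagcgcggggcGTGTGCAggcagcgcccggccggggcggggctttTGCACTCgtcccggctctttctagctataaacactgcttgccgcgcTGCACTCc
MT1X: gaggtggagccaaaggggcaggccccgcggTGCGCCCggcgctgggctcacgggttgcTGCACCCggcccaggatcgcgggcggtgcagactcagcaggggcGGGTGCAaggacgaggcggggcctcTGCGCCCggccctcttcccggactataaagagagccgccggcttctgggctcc
These stretches hold 6 and 4 matches, none of which overlaps another. In the full window of 250 bases before the start, MT2A has 7 matches and MT1X 4, while 24.8% of the 35116 RefSeq promoter windows hold at least 1, 0.37% at least 4 and 0.0313% at least 7. SLC30A1 has 1 match in its window and SLC39A10 none in either of its 2 windows. A match is a string of letters, not a measured site. For CYP1A1, the core GCGTG that AhR and its partner ARNT bind occurs 1 time on either strand of the same window, as it does at least 1 time in 32.2% of all windows. Bases further upstream were not searched, so sites there are not counted.

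In the list of zinc transporter genes and MTF1, 5 of the 19 tested members of 25 changed, 2 higher and 3 lower, beside 2.17% of all genes called higher and 2.04% called lower. SLC30A1, the zinc exporter of the plasma membrane and itself a known MTF1 target, had 107.9, 107.7 and 107.0 CPM at the medium dose, against 131.7, 132.4 and 127.7 CPM in the vehicle. It fell with tight replicates and no overlap (log2 fold change -0.28, SE 0.04, edgeR adjusted p = 4.68e-06). SLC39A10, a zinc importer, had 18.64, 20.16 and 20.31 CPM at the medium dose, against 14.20, 14.44 and 13.76 CPM in the vehicle (log2 fold change 0.48, SE 0.06, edgeR adjusted p = 1.11e-06). The importer SLC39A4 rose by a log2 fold change of 0.23, and SLC39A11 and SLC39A7 fell by 0.25 and 0.14 on the log2 scale. MTF1 itself had 21.09, 21.62 and 21.1 CPM at the medium dose and 20.86, 21.21 and 20.29 CPM in the vehicle (log2 fold change 0.03, edgeR adjusted p = 0.824). SLC30A1 and SLC39A10 kept their calls under every setting tried, while the calls of SLC39A4 and SLC39A11 were lost in some: SLC39A4 without medium replicate 2 or vehicle replicate 1, and SLC39A11 without medium replicate 3 or vehicle replicate 3 and with no filter on low counts. The median log2 fold change over the 19 was -0.05, near the 0.01 of all genes tested.

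Across the dose series CYP1A1 was highest at the high dose, while MT2A stood at similar levels at the medium and high doses. Mean CYP1A1 was 12.5 CPM in the vehicle, 15.65 CPM at the low dose, 44.29 CPM at the medium dose and 292.9 CPM at the high dose. The medium dose exceeded the low dose by a log2 fold change of 1.497 (SE 0.09, edgeR adjusted p = 1.45e-15), and the high dose exceeded the medium dose by 2.73 (SE 0.08, edgeR adjusted p = 9.27e-30). Mean MT2A was 483.7 CPM in the vehicle, 419.8 CPM at the low dose, 216.9 CPM at the medium dose and 196.9 CPM at the high dose. For MT2A the step between medium and low dose passed the test (log2 fold change -0.95, SE 0.10, edgeR adjusted p = 2.33e-09), and the step between high and medium dose did not (log2 fold change -0.14, SE 0.10, edgeR adjusted p = 0.298). MT1G, in contrast, averaged 138.2 CPM in the vehicle, 113.1 CPM at the low dose, 54.7 CPM at the medium dose and 12.62 CPM at the high dose, and both of its upper steps passed (high minus medium log2 fold change -2.12, edgeR adjusted p = 8.84e-16). MT1E, MT1X, MT1F and MT1M were likewise called lower at the high than at the medium dose, with log2 fold changes of -1.44, -1.51, -2.21 and -3.28, while MT1A, at 1.41 CPM at the high and 1.38 CPM at the medium dose on average, did not pass (edgeR adjusted p = 0.998). Whether the step of MT2A differed from that of the others was not tested.

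**Figure D2:**
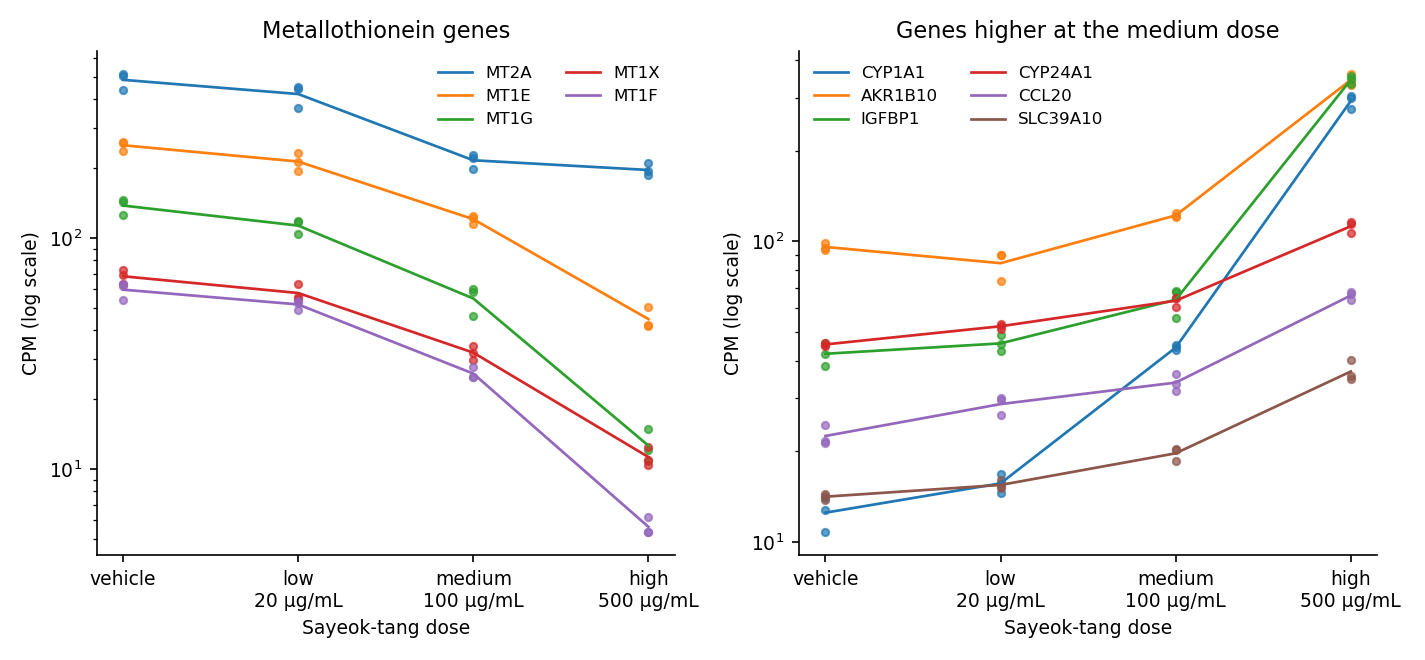
Level in CPM, on log axes, of 5 metallothionein genes (left) and 6 genes higher at the medium dose (right) in the vehicle and at the low, medium and high dose of Sayeok-tang. Points are libraries, 3 in each group, and lines join group means. Mean MT2A was 216.9 CPM at the medium and 196.9 CPM at the high dose while the other 4 metallothioneins were lower still at the high dose, and mean CYP1A1 was 15.65 CPM at the low and 292.9 CPM at the high dose.

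Between the medium and the low dose, which carry the same prefix in their sample codes and include no vehicle library, 77 genes (0.552%) were called, 29 (0.208%) higher and 48 (0.344%) lower at the medium dose. Without medium replicate 3 the count was 33, without low replicate 2 it was 37, and with these groups fitted alone it was 30. With the GC and length trend taken out it was 131, 69 higher and 62 lower, and by DESeq2 it was 100, 53 higher and 47 lower. The AhR list gave 2 higher of 6 (CYP1A1 and NQO1), the metallothioneins 6 lower of 7 and the NRF2 targets 7 higher of 22. AKR1B10, an aldo-keto reductase gene under NRF2, averaged 121.9 CPM at the medium dose and 84.51 CPM at the low dose (log2 fold change 0.53, edgeR adjusted p = 8.53e-09). LCN15, which encodes a lipocalin, had 2.13, 2.82 and 2.18 CPM at the medium dose and averaged 1.195 CPM at the low dose (log2 fold change 0.99, edgeR adjusted p = 0.00613). The vehicle samples carry another code prefix than the formula samples, so in any comparison with the vehicle the prefix and the treatment cannot be told apart.

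Between the high and the medium dose, 4016 genes (28.8%) were called, 1968 (14.1%) higher and 2048 (14.7%) lower at the high dose. Of the 24 genes tested for cholesterol synthesis and uptake, 23 were lower at the high than at the medium dose, and 24 of 26 hypoxia and glycolysis genes and 19 of 22 NRF2 targets were higher. At the medium dose against the vehicle, 2 cholesterol genes were lower, 2 hypoxia and glycolysis genes higher, and 5 NRF2 targets higher and 1 lower. Of all genes, 2.17% were called higher and 2.04% lower in that comparison. GDF15, a secreted stress hormone gene, had 161.0, 179.0 and 171.4 CPM at the medium dose and 163.5, 156.1 and 177.0 CPM in the vehicle, with overlapping libraries, and averaged 473.3 CPM at the high dose (high minus medium log2 fold change 1.47, edgeR adjusted p = 7.48e-23). HMGCS1, which acts early in cholesterol synthesis, had 438.1, 450.5 and 425.8 CPM at the medium dose and 478.9, 483.5 and 462.9 CPM in the vehicle (edgeR adjusted p = 0.0686), and averaged 237.8 CPM at the high dose (high minus medium log2 fold change -0.88, edgeR adjusted p = 1.05e-22).

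Against Bojungikgi-tang at the same 100 µg/mL, 44 genes (0.316%) were called, 16 (0.115%) higher and 28 (0.201%) lower with Sayeok-tang. The count was 25 without medium replicate 2, 14 without medium replicate 3, 15 without Bojungikgi-tang replicate 2 and 7 without Bojungikgi-tang replicate 3, and it was 81 (40 higher, 41 lower) with the GC and length trend taken out. The balance of directions turned with the setting, at 22 higher and 16 lower with only these groups fitted, 91 higher and 65 lower with no filter on low counts, and 24 higher and 25 lower by DESeq2. CYP1A1 averaged 44.29 ± 0.83 CPM with Sayeok-tang (SD, n = 3) and 20.74 ± 2.25 CPM with Bojungikgi-tang (SD, n = 2), a log2 fold change of 1.09 (SE 0.10, edgeR adjusted p = 1.34e-09). Of the 7 metallothioneins 6 were lower with Sayeok-tang, and the summed level of the 7 was 451.8 CPM on average with Sayeok-tang and 753.9 CPM with Bojungikgi-tang. MT2A differed by a log2 fold change of -0.72 (edgeR adjusted p = 3.76e-05). SLC30A1 was lower (log2 fold change -0.25), SLC39A10 was higher (log2 fold change 0.37) and AKR1B10 was higher (log2 fold change 0.45) with Sayeok-tang. SLC6A12, the betaine and GABA transporter gene, averaged 5.41 CPM with Sayeok-tang and 8.69 CPM with Bojungikgi-tang (log2 fold change -0.68, edgeR adjusted p = 0.00196).

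Beyond CYP1A1, IGFBP1 and CCL20 had the highest rises against the vehicle among the named genes of at least 5 CPM. IGFBP1, which encodes an insulin-like growth factor binding protein made by hepatocytes, had 55.6, 68.2 and 67.78 CPM at the medium dose and 42.31, 38.36 and 46.01 CPM in the vehicle (log2 fold change 0.60, SE 0.12, edgeR adjusted p = 0.00152). CCL20, a chemokine gene and NF-kB target, had 31.84, 36.18 and 33.57 CPM at the medium dose and 21.69, 21.39 and 24.42 CPM in the vehicle (log2 fold change 0.59, SE 0.09, edgeR adjusted p = 1.92e-05). Medium replicate 1 was the lowest of its group for both genes and still lay above every vehicle library. AREG, which encodes the EGF receptor ligand amphiregulin, had 8.98, 7.99 and 8.60 CPM at the medium dose and 6.17, 6.14 and 5.86 CPM in the vehicle (log2 fold change 0.49, edgeR adjusted p = 0.00171). CYP24A1, whose enzyme breaks down vitamin D, had 60.32, 64.97 and 64.92 CPM at the medium dose and 45.27, 45.87 and 44.95 CPM in the vehicle (log2 fold change 0.48, SE 0.05, edgeR adjusted p = 5.89e-10).

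PLAC8 (log2 fold change 0.44), SLC39A10, ACSL3P1 and the long non-coding gene AL590004.3 (log2 fold changes 0.48, 0.53 and 0.57) also kept their calls in every setting tried. ACSL3P1 is a pseudogene, so its reads may be shared with its parent gene, and EVA1A-AS is an antisense gene whose reads may be mixed with those of its partner. For ZC3H12D, an RNase family gene, the water and glycerol channel gene AQP3, EVA1A-AS, C12orf75 and MICALL2, whose log2 fold changes lay between 0.43 and 0.52, the call was lost when vehicle replicate 3 was left out, and other single libraries also ended the calls of ZC3H12D, EVA1A-AS, C12orf75 and MICALL2. Mean MICALL2 was 8.54 CPM at the medium and 8.78 CPM at the low dose (edgeR adjusted p = 0.935). Mean EVA1A-AS was 5.83 CPM at the medium dose and 5.57 CPM with Bojungikgi-tang (edgeR adjusted p = 0.964). MARK2, a polarity kinase gene, had 39.68, 38.35 and 40.78 CPM at the medium dose and 30.17, 29.91 and 24.11 CPM in the vehicle. Its rise (log2 fold change 0.50, edgeR adjusted p = 0.00501) was lost without the lowest vehicle library, replicate 3, and its means of 48.37 CPM at the low dose and 45.61 CPM at the high dose showed no rise with dose.

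Among the deepest falls outside the metallothioneins, in genes of at least 5 CPM in the vehicle, SLC6A12 came first. It had 4.54, 6.17 and 5.52 CPM at the medium dose and 9.383, 8.855 and 9.202 CPM in the vehicle (log2 fold change -0.75, SE 0.11, edgeR adjusted p = 1.38e-05). CYP3A7, the fetal liver member of the CYP3A drug oxidation family, had 4.45, 4.44 and 4.66 CPM at the medium dose and 7.98, 6.47 and 6.49 CPM in the vehicle (log2 fold change -0.63, SE 0.12, edgeR adjusted p = 0.000592). RAB17, a small GTPase gene of polarised epithelia, had 35.38, 37.51 and 35.07 CPM at the medium dose and 49.14, 50.6 and 53.56 CPM in the vehicle (log2 fold change -0.51, SE 0.06, edgeR adjusted p = 8.8e-08). Mean RAB17 was 41.92 CPM at the low dose and 41.62 CPM with Bojungikgi-tang. The low dose was already below the vehicle (log2 fold change -0.29, edgeR adjusted p = 0.0323). The medium dose did not pass against the low dose or against Bojungikgi-tang (edgeR adjusted p = 0.0941 and 0.304). SLC6A9, a glycine transporter gene, had 13.61, 14.68 and 14.64 CPM at the medium dose and 20.66, 18.01 and 21.51 CPM in the vehicle (log2 fold change -0.48, SE 0.07, edgeR adjusted p = 3.33e-06). Medium and vehicle libraries did not cross for any of these genes.

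CYP3A7 is close in sequence to the other CYP3A genes, so its count, too, depends on how reads were shared out. MMP11, a matrix metalloproteinase gene (log2 fold change -0.49), ACSM2A, a medium-chain acyl-CoA synthetase gene (-0.47), and TRIM50 (-0.45) fell under every setting tried. ACSM2A has close paralogs, so its count rests on how reads were shared out. GAL3ST1, FAM43B and MAB21L4, with log2 fold changes of -0.47, -0.45 and -0.45, lost their calls without vehicle replicate 3. The calls of GAL3ST1 and MAB21L4 were also lost without medium replicate 3.

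**Figure D3:**
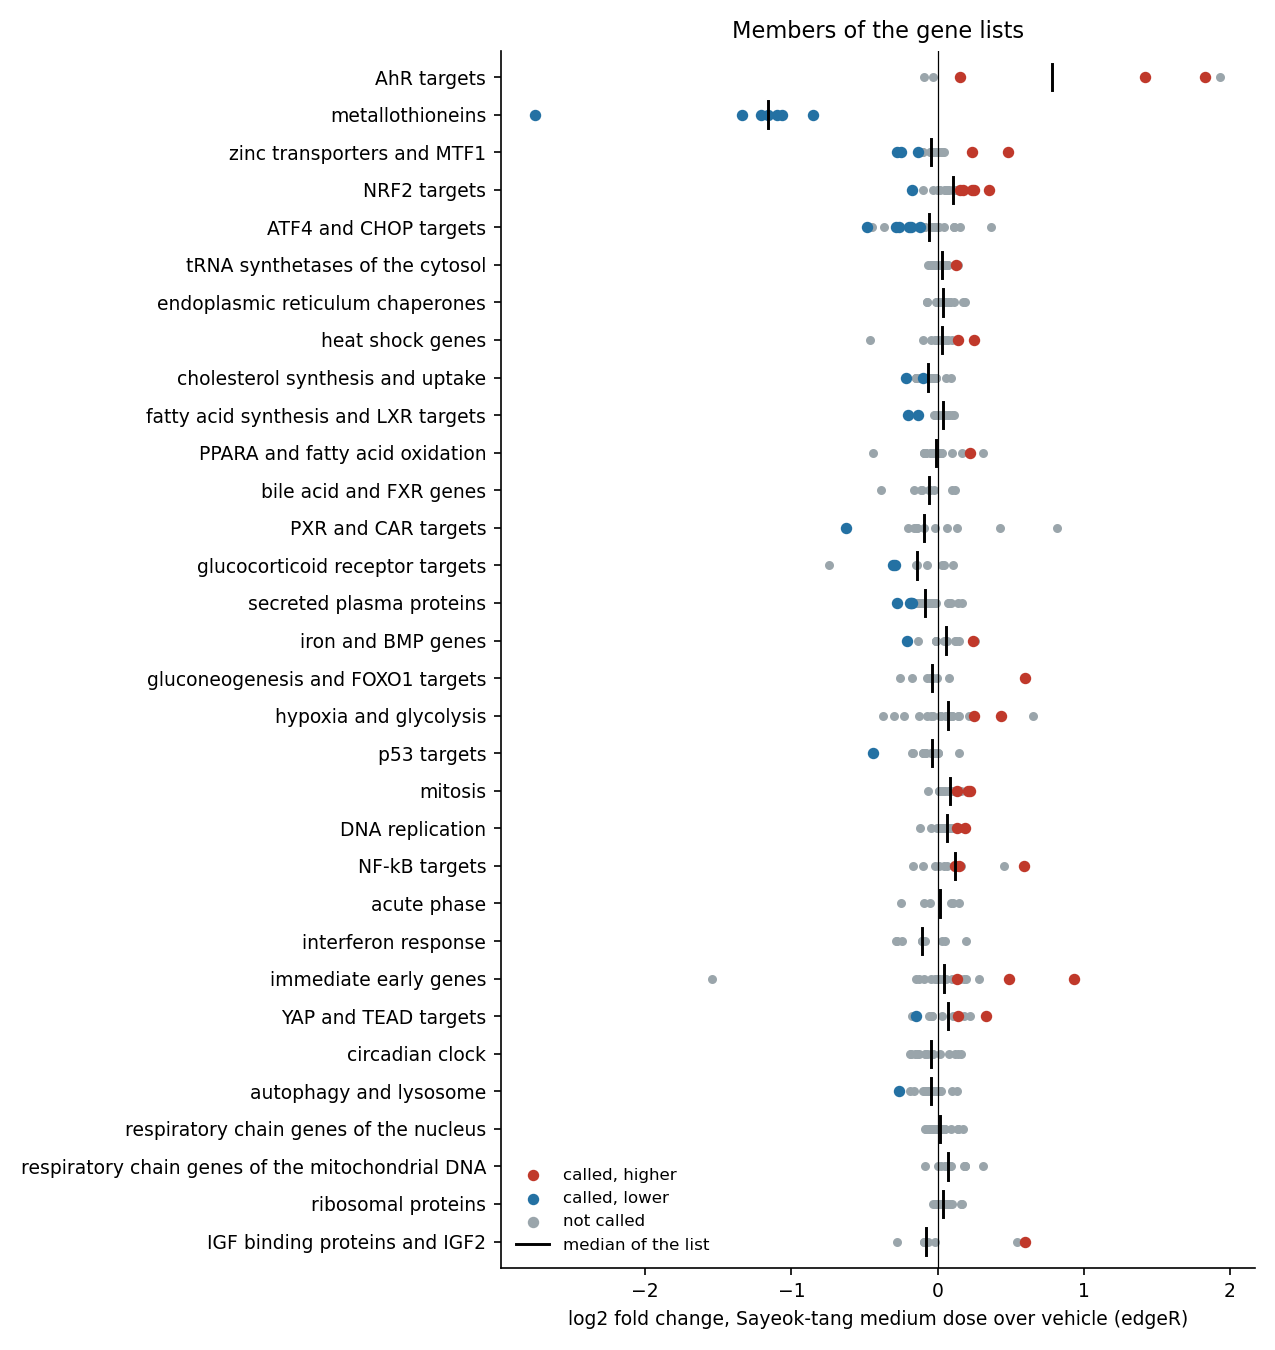
Log2 fold change of the Sayeok-tang medium dose over the vehicle (x axis) for every tested member of 32 gene lists (rows). Red points are members called higher, blue points members called lower and grey points members not called, and black bars are list medians. The 7 metallothioneins lie between -2.75 and -0.85 and the AhR list reaches above 1.8, while most other members lie near 0.

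Among the 22 NRF2 targets tested, 5 rose and 1 fell, beside 2.17% of all genes called higher and 2.04% called lower (median log2 fold change 0.11, against 0.01 over all genes). AKR1B10 had 121.6, 120.1 and 123.9 CPM at the medium dose and 94.98, 93.31 and 98.87 CPM in the vehicle (log2 fold change 0.35, SE 0.06, edgeR adjusted p = 3.91e-05). ABCC2, an efflux pump for conjugates into bile, had 404.4, 410.6 and 396.3 CPM at the medium dose and 349.1, 334.9 and 334.8 CPM in the vehicle (log2 fold change 0.25, edgeR adjusted p = 0.000378). TXNRD1, thioredoxin reductase, rose with a log2 fold change of 0.17, and GCLM, a subunit of the enzyme that starts glutathione synthesis, with 0.24, a call that was lost without medium replicate 1, medium replicate 3 or vehicle replicate 3. AKR1C1 fell, with 1091, 1101 and 1176 CPM at the medium dose and 1284, 1239 and 1276 CPM in the vehicle, although its mean was 1020 CPM at the low and 1981 CPM at the high dose. Its call (log2 fold change -0.17, edgeR adjusted p = 0.0383) was lost when any library except medium replicate 3 was left out, and it shares sequence with AKR1C2 and AKR1C3. HMOX1, the heme oxygenase gene, had 62.54, 58.52 and 64.4 CPM at the medium dose and 58.77, 57.07 and 61.55 CPM in the vehicle, with overlap (edgeR adjusted p = 0.549).

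In the list of ATF4 and CHOP targets, which respond to amino acid lack and to stress of the endoplasmic reticulum, 7 of 28 tested members fell and none rose by edgeR, beside 2.04% of all genes called lower (median log2 fold change -0.06). DESeq2 called 7 lower and 0 higher, beside 271 lower of all 13945 genes. At an unadjusted p below 0.05, 10 were lower and 0 higher, beside 1159 lower of all genes. ASNS, asparagine synthetase, had 37.42, 35.81 and 35.15 CPM at the medium dose and 42.18, 44.87 and 44.44 CPM in the vehicle (log2 fold change -0.28, SE 0.05, edgeR adjusted p = 0.000502). SLC6A9 belongs to this list, and the serine synthesis genes PSPH and PHGDH fell by 0.18 and 0.12 on the log2 scale. NUPR1 and SESN2 fell by 0.27 and 0.19 on the log2 scale, and their calls were lost when vehicle replicate 1 was left out, and also without medium replicate 2 (NUPR1) or without medium replicate 1 or vehicle replicate 2 (SESN2). DDIT3, the gene of CHOP, had 11.38, 11.74 and 11.68 CPM at the medium dose and 13.0, 11.79 and 12.39 CPM in the vehicle (edgeR adjusted p = 0.587), and ATF4 itself had a log2 fold change of -0.01 (edgeR adjusted p = 0.943). Mean ASNS was 44.49 CPM at the low dose, 36.1 CPM at the medium dose and 46.89 CPM at the high dose, and it was 30.99 CPM with Bojungikgi-tang at 100 µg/mL. Mean SLC6A9 was 14.3 CPM at the medium dose and 14.5 CPM with Bojungikgi-tang. Between these formulas 0 of the 28 members were called, beside 0.316% of all genes. Bojungikgi-tang over the vehicle gave 2 lower and 0 higher of the 28, beside 0.0645% of all genes called.

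Plasma protein genes gave 4 lower of 25 tested, beside 2.04% of all genes called lower. At an unadjusted p below 0.05, 9 were lower and 1 higher, beside 1159 lower and 1346 higher of all 13945 genes. ALB, serum albumin, had 8900, 9056 and 9386 CPM at the medium dose and 10390, 10030 and 10550 CPM in the vehicle (log2 fold change -0.18, SE 0.04, edgeR adjusted p = 0.00253). APOA1, HPX and VTN fell by 0.19, 0.28 and 0.18 on the log2 scale, and each lost its call without vehicle replicate 3. Cholesterol genes gave 2 lower of 24, and 9 lower and 1 higher at an unadjusted p below 0.05, to be read beside the same counts of all genes. Among the called was MVK, the mevalonate kinase gene (log2 fold change -0.21, edgeR adjusted p = 0.00165). ACSS2, which makes acetyl-CoA from acetate, had 110.0, 106.2 and 104.2 CPM at the medium dose and 121.5, 121.1 and 126.6 CPM in the vehicle (log2 fold change -0.21, edgeR adjusted p = 0.000274).

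Among genes that glucocorticoids control, 2 of 9 fell, beside 2.04% of all genes called lower. SGK1, a kinase gene, had 46.03, 47.19 and 47.39 CPM at the medium dose and 57.78, 57.41 and 58.36 CPM in the vehicle (log2 fold change -0.30, SE 0.05, edgeR adjusted p = 1.58e-05), and HSD11B2, whose enzyme inactivates cortisol, fell by 0.29 on the log2 scale, a call lost without medium replicate 1 or 2 or vehicle replicate 1 or 3. Of the iron genes, TFRC, the transferrin receptor gene, had 546.0, 560.2 and 562.4 CPM at the medium dose and 474.6, 481.6 and 452.8 CPM in the vehicle (log2 fold change 0.24, SE 0.04, edgeR adjusted p = 4.51e-05). TFR2 fell by 0.21 on the log2 scale, a call that held only when vehicle replicate 2 was the library left out. HAMP, which encodes hepcidin, the hormone that limits iron uptake, overlapped between groups (65.63, 69.21 and 80.62 CPM at the medium dose, 69.88, 61.42 and 63.98 CPM in the vehicle, edgeR adjusted p = 0.308).

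Of 22 mitosis genes tested 3 rose and none fell, beside 2.17% of all genes called higher. They were CENPE, CENPF and CCNA2, with log2 fold changes of 0.22, 0.21 and 0.14. At an unadjusted p below 0.05, 14 of the 22 were higher and 0 lower, beside 1346 higher and 1159 lower of all 13945 genes, and DESeq2 called 3 higher and 0 lower. CENPF, a kinetochore protein gene, had 240.6, 230.3 and 226.9 CPM at the medium dose and 195.0, 216.3 and 192.4 CPM in the vehicle (edgeR adjusted p = 0.00356). These calls were lost without vehicle replicate 3, and those of CENPE and CCNA2 also without medium replicate 1. The call of CCNA2 was further lost without vehicle replicate 1, with RLE scaling, with no filter and with only these groups fitted. At the medium over the low dose and over Bojungikgi-tang, 0 of the 22 were called, beside 0.552% and 0.316% of all genes. Mean CENPF was 232.6 CPM at the medium dose, 223.1 CPM at the low dose, 231.5 CPM with Bojungikgi-tang and 201.2 CPM in the vehicle. CENPE and CENPF were lower at the high than at the low dose (log2 fold changes -0.16 and -0.26, edgeR adjusted p = 0.0123 and 1.04e-05). RRM2, the ribonucleotide reductase subunit gene that supplies DNA synthesis, had 369.5, 368.4 and 376.4 CPM at the medium dose and 324.3, 333.0 and 321.3 CPM in the vehicle (log2 fold change 0.19, SE 0.03, edgeR adjusted p = 0.000378). HK2, the glycolytic hexokinase gene, rose with a log2 fold change of 0.25, and CDKN1A, the p53 target that halts the cell cycle, had a log2 fold change of -0.10 (edgeR adjusted p = 0.0945).

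Of the lists of signalling targets, read beside 2.17% of all genes called higher and 2.04% called lower, NF-kB targets gave 3 higher of 13 (CCL20, ICAM1 and SOD2), immediate early genes 3 higher of 22 (EREG, AREG and MYC) and YAP and TEAD targets 2 higher and 1 lower of 12 (among them ANLN and, lower, AJUBA). EREG, the gene of the EGF receptor ligand epiregulin, had 1.77, 1.45 and 1.58 CPM at the medium dose and 0.782, 1.116 and 0.590 CPM in the vehicle (log2 fold change 0.93, SE 0.22, edgeR adjusted p = 0.00929), a call lost without medium replicate 1 or vehicle replicate 3. Of the others, ICAM1, SOD2, MYC, ANLN and AJUBA differed by 0.15 or less on the log2 scale, and each lost its call without 4 or more of the 6 libraries in turn. SOD2 also lost it with the GC and length trend taken out (log2 fold change 0.067 against 0.121, edgeR adjusted p = 0.324), and ICAM1 with RLE scaling and with DESeq2.

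The remaining lists gave 1 or 2 calls each, beside 4.22% of all genes called, 2.17% higher and 2.04% lower. Heat shock genes gave 2 higher of 14 (HSPE1 and HSPA8), DNA replication genes 2 higher of 27 (among them RRM2), hypoxia and glycolysis genes 2 higher of 26 (PFKP and HK2), and the cytosolic tRNA synthetases 1 higher of 20 (KARS1). Without vehicle replicate 3 the calls of HSPE1, HSPA8, PFKP and KARS1 were lost, each also without at least 2 other libraries in turn, and RRM2 and HK2 kept theirs. Fatty acid oxidation genes gave 1 higher of 19, ACADVL, the very long chain acyl-CoA dehydrogenase gene (log2 fold change 0.22, edgeR adjusted p = 0.00858, lost without vehicle replicate 1). Fatty acid synthesis genes gave 2 lower of 15 (ACSS2 and FADS2), p53 targets 1 lower of 18 (BTG2, log2 fold change -0.44, lost without medium replicate 1, 2 or 3 or vehicle replicate 3), autophagy and lysosome genes 1 lower of 22 (TFEB, log2 fold change -0.26, lost without any 1 library except vehicle replicate 1), and PXR and CAR targets 1 lower of 11 (CYP3A7). In both the gluconeogenesis list of 8 and the list of 8 IGF binding proteins and IGF2, IGFBP1 was the 1 member called. PCK1, the gluconeogenesis enzyme gene, had 3.67, 4.11 and 3.38 CPM at the medium dose and 3.75, 3.91 and 3.74 CPM in the vehicle (edgeR adjusted p = 0.942). Another 8 lists had no member called by edgeR or by DESeq2, and 21 of their 129 tested members were at an unadjusted p below 0.05, near the 18% of all genes tested. They were the endoplasmic reticulum chaperones, bile acid and FXR genes, acute phase genes, interferon response genes, clock genes, respiratory chain genes, both nuclear and mitochondrial, and ribosomal proteins. Taken singly, these lists ranged from 5.88% of members at an unadjusted p below 0.05 (clock genes) to 38.9% (endoplasmic reticulum chaperones). Of the 18 chaperones tested, 6 were higher and 1 lower by that rule.

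The high and low dose libraries share no library with the medium and vehicle groups, so their difference gives a separate reading of the 588 called genes. Of these, 529 (90%) differed in the same direction between high and low dose and 440 (74.8%) were themselves called in that direction, beside 63.7% and 28.4% of all genes tested. The 440 were 8.38% of the 5250 genes (37.6%) called between high and low dose. For genes higher at the medium dose, 200 of 303 were called the same way, and for genes lower, 240 of 285. Across the 588 genes, which are not independent replicates, Pearson's r between the log2 fold changes was 0.80, against 0.38 across all genes tested. Another 18 (3.06%) were called in the opposite direction, beside 9.21% of all genes tested, and among the named genes these were CENPE, CENPF, ACSL3P1 and AKR1C1. The genes called higher at the high than at the low dose had a median GC content of 45.9%, those called lower 51.9%. This is the same lean as in medium over vehicle, and its share in the equal directions was not tested.

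**Figure D4:**
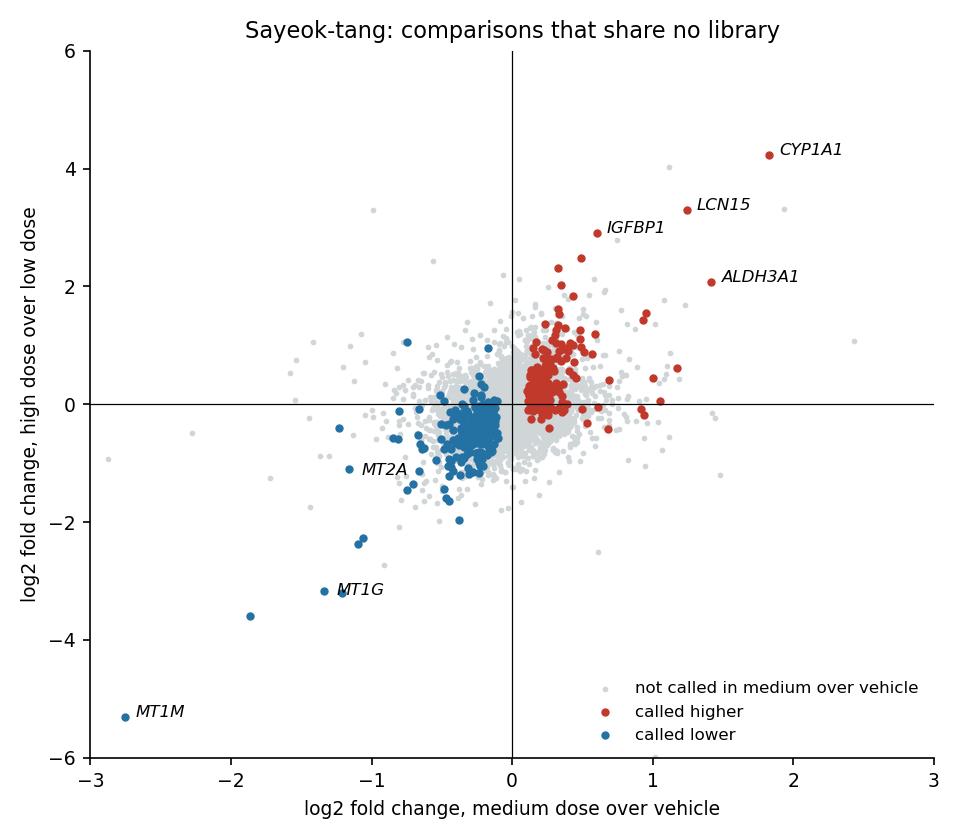
Log2 fold change of the medium dose over the vehicle (x axis) against that of the high over the low dose (y axis), 1 point per gene tested, with genes called higher at the medium dose in red, called lower in blue and the rest in grey. 10 genes, none of them called in medium over vehicle, lie outside the axes. CYP1A1 stands at 1.83 and 4.22 and MT1G at -1.34 and -3.17, and most called genes lie in the quadrants of equal direction.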

How the data were processed

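The values as deposited were expected counts per gene, which the authors made, per the submitters' processing notes, with FastQC 0.11.9, Trim Galore 0.6.5, STAR 2.7.3a and RSEM 1.3.3 on GRCh38. Libraries were made, per the labels, with a strand-specific MGIEasy kit from 1 µg of RNA of integrity number over 7 and read as 100 bp pairs. Of the nonzero deposited expected counts 75.26% were whole (tolerance 1e-09), and all were rounded before testing. Of 60675 gene identifiers 57055 received a symbol. The table held 209 further columns that the labels did not map, and they were not used here.

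The 13945 genes that reached 1 CPM in 3 or more libraries were scaled by TMM and fitted in edgeR 4.0.16 (R 4.3.3) by quasi-likelihood with 1 mean for each of 24 groups over 58 libraries and no replicate block. CPM values use TMM library sizes, so they compare a gene between libraries. They are not scaled by gene length, so sums and shares over genes are of counted reads, not of molecules. Replicates varied with a common dispersion of 0.00181 (coefficient of variation 4.25%), and no replicate was a copy of another. Tests were two-sided, adjusted by Benjamini-Hochberg within each comparison, and SE is the absolute log2 fold change over the root of the F statistic. The method was tested on simulated data. DESeq2 1.42.0 was an alternative.

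The comparisons, the 32 gene lists, the 4 marker lists and the rule for named genes were chosen with earlier results of these data known. The rule took, in medium over vehicle, the 15 largest called rises and falls among genes with a symbol, a higher group mean of 5 CPM or more and groups that do not overlap, up to 4 called members of each list and a fixed panel, and in the other comparisons the 5 largest each way. Further list members, the 2-fold genes of low level and the promoter motifs were chosen after their values were seen. Promoter sequences came from RefSeq (GRCh38.p14). A few genes that the rule named are counted in their lists but not reported by name here.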

Additional observations from a re-analysis of the deposited data

How the results depend on the processing

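For medium over vehicle, 217 to 497 genes were called when 1 of the 6 libraries was left out, against 588, and every call shared with the full fit kept its direction. With the GC and length trend taken out the counts were 1060 (medium over vehicle), 131 (medium over low) and 81 (Sayeok-tang over Bojungikgi-tang). With no filter on low counts they were 203 for medium over low and 156 for Sayeok-tang over Bojungikgi-tang. Medium over low gave 30 genes with only its groups fitted, 122 without 3 libraries of other groups, and 33 to 62 with 1 library left out. Sayeok-tang over Bojungikgi-tang gave 7 to 32 with 1 library left out, where an arm of 1 library is assumed to vary like the other groups. High over medium and high over low stayed within 1.5 times of their counts under all settings tried, as did medium over vehicle with RLE scaling (594), DESeq2 (534), a filter of 5 CPM (645), no filter (713), its groups alone (611) and without 3 libraries of other groups (869). With the replicate block the counts were 622, 81, 4078, 46 and 5285 for medium over vehicle, medium over low, high over medium, Sayeok-tang over Bojungikgi-tang and high over low. Deviations of same-numbered medium and vehicle libraries correlated at -0.067, 0.051 and 0.032, so no shared effect of the replicate number was seen. Such values cannot tell whether equal numbers mark a shared culture or day, which the labels do not state. Of 75 named genes called in medium over vehicle, 34 kept their call in every setting that gave a value, including CYP1A1, MT1G, MT2A and SLC30A1, and 36 lost it without vehicle replicate 3. PCK1, which was not called, ranged from -0.110 to 0.039 in log2 fold change with 1 library left out, against -0.030, and changed sign only without medium replicate 3. DESeq2 gave no adjusted p for some weakly expressed genes such as MT1M and ALDH3A1. At this depth, weak genes rest on few reads. Why the settings changed the counts was not tested.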

Other observations

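Several genes with few reads differed by more than 2-fold between the medium dose and the vehicle. LCN15, which encodes a lipocalin, averaged 2.38 ± 0.39 CPM at the medium dose and 1.00 ± 0.30 CPM in the vehicle (SD, n = 3 each; edgeR log2 fold change 1.24, adjusted p = 0.000116), and it averaged 1.195 CPM at the low and 11.9 CPM at the high dose. IGFN1, an immunoglobulin-like and fibronectin domain gene, averaged 2.42 ± 0.77 CPM at the medium dose and 1.07 ± 0.083 CPM in the vehicle (SD, n = 3 each; edgeR log2 fold change 1.18, adjusted p = 0.00276), with 1.76 CPM at the low and 2.69 CPM at the high dose. TAS2R4, a bitter taste receptor gene, averaged 1.00 ± 0.11 CPM at the medium dose and 0.482 ± 0.045 CPM in the vehicle (SD, n = 3 each; edgeR log2 fold change 1.05, adjusted p = 0.00986), with 0.847 CPM at the low and 0.879 CPM at the high dose. The non-coding gene AL357033.1 averaged 0.506 ± 0.095 CPM at the medium dose and 1.85 ± 0.21 CPM in the vehicle (SD, n = 3 each; edgeR log2 fold change -1.87, adjusted p = 1.58e-05), with 1.07 CPM at the low and 0.0842 CPM at the high dose. C1QTNF1, which encodes a secreted C1q-like protein, averaged 0.536 ± 0.14 CPM at the medium dose and 1.26 ± 0.23 CPM in the vehicle (SD, n = 3 each; edgeR log2 fold change -1.23, adjusted p = 0.00929), with 0.993 CPM at the low and 0.759 CPM at the high dose. LCN15 and AL357033.1 moved further in the same direction at the high dose, while TAS2R4 and C1QTNF1 lay closer to the vehicle at the high than at the medium dose. AL357033.1 and C1QTNF1 averaged under 1 CPM at the medium dose and TAS2R4 in the vehicle, so they met the filter through libraries with higher levels. All of these low-level genes were chosen after their values were seen.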
